A study of Mus musculus with 8 samples.

Results

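The transcripts of 31 genes that build and run the rod outer segment were compared between *dmbo* and wild-type (WT) mouse retinas. The set is a list of names and holds the rod transduction cascade and the proteins of the outer segment and its trafficking and matrix. It also holds enzymes and carriers of retinoids, and transcription factors and nuclear regulators, among them those that set rod identity. All 31 genes were found among the 21652 genes with a symbol on the array, and each is represented by the probe set with the highest mean signal over the 8 arrays. The *dmbo* mice were homozygous for an early stop codon in *Hmx1*, a homeobox transcription factor gene, and had been backcrossed to C57BL/6J, which also served to breed out the *Rd1* mutation that the stock carried. The WT mice were C57BL/6J. Both groups were killed at postnatal day 15 (P15) after rearing in a daily cycle of light and dark. By the study's account RNA of each whole retina was prepared on its own. Each sample was hybridized to 1 Affymetrix Mouse Gene 1.0 ST array, with 4 arrays in each group. Values are log2 signals after RMA, the authors' background correction, quantile normalization and probe summary.

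Rods detect light in a stack of membrane discs at the tip of a modified cilium. Light-activated pigment switches on the G protein transducin, transducin activates the phosphodiesterase PDE6, and the fall in cGMP closes a cation channel of the plasma membrane. A kinase, an arrestin and an RGS protein then shut the cascade off. The factors *Crx*, *Nrl* and *Nr2e3* turn on rod genes and, in the case of *Nr2e3*, keep cone genes low. At P15 the eyes of mice have only just opened and outer segments are still lengthening. In whole retina, fewer rods and less RNA per rod cannot be told apart.

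The arrays resembled each other, with pairwise correlations of 0.989 to 0.997 and medians of 8.19 to 8.28 over 28350 probe sets. All 31 rod genes had signals above the array median on every array, between 8.66 and 13.79, so the tissue carried its rod transcripts in both genotypes. Lens transcripts varied widely between the arrays. Averaged over 14 crystallins, the log2 signal was 11.67, 10.38, 8.40 and 12.73 in the *dmbo* arrays, taken in the order of their replicate numbers, against 7.41, 7.43, 7.73 and 9.07 in the WT arrays. Of 18 lens markers none had a negative log2 fold change, against 47% of all genes. Their median log2 fold change was 2.44. At an unadjusted p under 0.05 from limma, 16 of the 18 were higher in *dmbo*, against 3.76% of all genes. None of them passed the test described below (lowest limma adjusted p = 0.16), and in 1 of 18 the groups did not overlap, against 5.83% of all genes. The groups were also unbalanced in sex. *Xist*, the transcript of the inactive X, and Y-linked transcripts were both present in *dmbo* replicates 1 and 2. Their *Xist* signals were 10.58 and 12.73, and the means of 3 Y-linked genes were 10.13 and 8.18. Normally only 1 of these kinds is found in a mouse. The labels do not say whether RNA of more than 1 animal was mixed in these samples. *Dmbo* replicates 3 and 4 and WT replicate 2 carried *Xist* alone, and WT replicates 1, 3 and 4 carried Y-linked transcripts alone. The *Hmx1* probe set gave 8.28, 8.13, 8.18 and 8.42 in *dmbo* and 8.25, 8.24, 8.21 and 8.32 in WT retinas, near the array medians. A stop codon leaves the probed sequence in the gene, and its effect on the transcript level was not tested. The probe set thus does not check the labels.

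None of the 31 rod genes passed the test in *dmbo* retinas at P15. To pass, a gene needed an adjusted p below 0.1 in the limma fit together with a difference of 1.2-fold or more. Over all 21652 genes 137 passed, 0.633%, and 0.79% had such a p whatever their fold. The lowest adjusted p of a rod gene was that of *Mef2c*, a MADS-box factor (limma adjusted p = 0.214). At an unadjusted p under 0.05 from limma, 2 of the 31 stood out, *Mef2c* with a higher and *Aipl1* with a lower signal in *dmbo*. That is 6.45% of the rod genes, near the 7.75% of all genes (3.76% higher and 3.99% lower in *dmbo*). In 3 of 31 the values of the groups did not overlap, against 5.83% of all genes, and these 3 were *Mef2c*, *Aipl1* and *Pdc*. The fitted differences were small, from a log2 fold change of -0.15 for *Aipl1* to 0.31 for *Mef2c*. Their median was -0.023, a change in signal of -1.61%, against 0.0049 over all genes. In sign 24 were negative and 7 positive, where 47% of all genes were negative.

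The arrays measured the rod genes closely enough to bound most of these differences. The 95% confidence interval of the log2 fold change reached between 0.084 and 0.194 to either side of the estimate. It lay wholly within 1.2-fold in both directions for 29 of 31 rod genes, against 80% of all genes. The exceptions were *Mef2c* and *Samd7*. Such an interval bounds the difference in signal on these arrays, and it does not show equal levels.

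**Figure D1:**
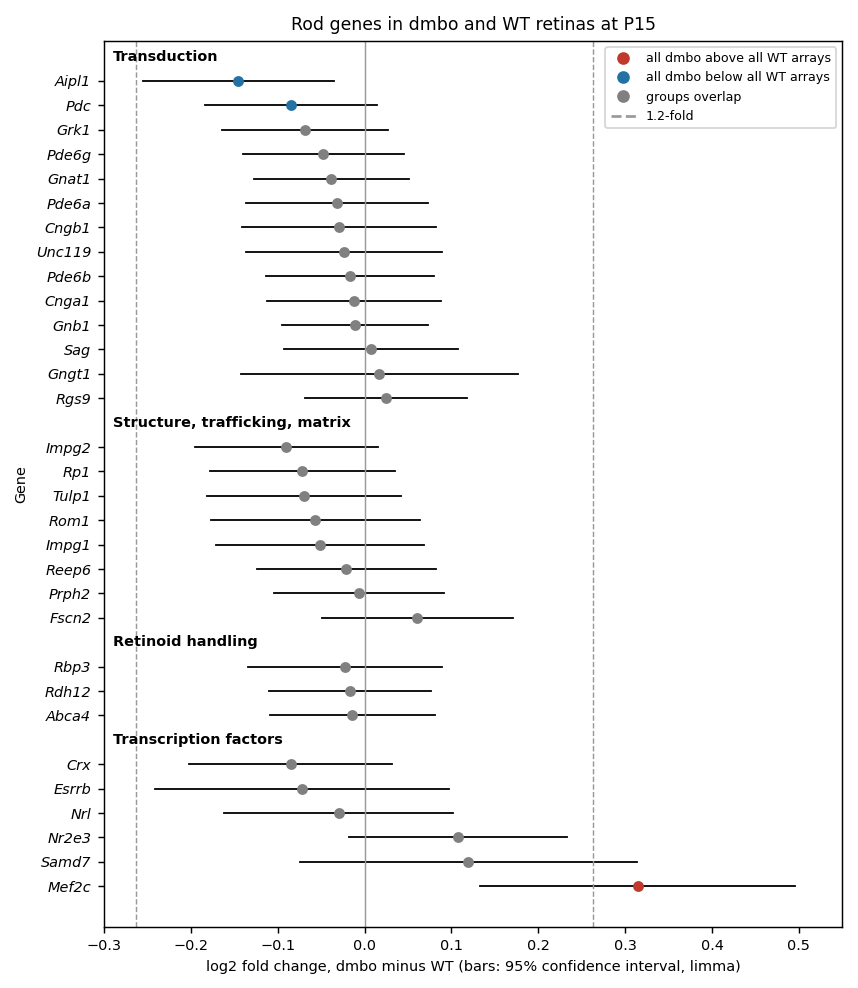
Log2 fold change of each of the 31 rod genes, *dmbo* minus WT (points), with its 95% confidence interval from limma (bars), grouped by role. Dashed lines mark 1.2-fold, and the intervals of 29 genes stay between them. *Mef2c* lies at 0.31, and *Aipl1* at -0.15.

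The balance of signs among the rod genes rested on 1 retina. *Dmbo* replicate 4 gave the lowest *dmbo* value in 31 of 31 rod genes, where it gave the lowest *dmbo* value in 29.9% of all genes. It was the lowest of all 8 arrays in 27 of them. Relative to the WT mean of each gene, the median rod gene was -0.117 in this replicate. The other *dmbo* arrays, replicates 1 to 3, had medians of -0.0039, 0.0027 and 0.018, against 0.014, -0.012, 0.041 and -0.029 for the WT arrays. Thus *dmbo* replicates 1 to 3 lay inside the WT range, and replicate 4 lay below it.

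Without *dmbo* replicate 4 the median log2 fold change of the rod genes was 0.0028, with 14 negative and 17 positive values, and again none passed. This replicate also had the highest crystallin mean of the 8 arrays, 12.73. Among WT retinas replicate 4 had the highest crystallin mean, 9.07, and the lowest rod median. *Dmbo* replicates 1, 2 and 3 had crystallin means of 11.67, 10.38 and 8.40. Their rod medians, -0.0039, 0.0027 and 0.0185, lay inside the WT range. The 4 *dmbo* arrays thus ranked in opposite order on the 2 measures, and the WT arrays did not. When the fit took in each array's mean crystallin signal, the median of the rod genes was 0.048, with 4 negative and 27 positive values, and none passed, while the median of all genes was -0.031. In this fit *Aipl1* was at -0.070 (limma unadjusted p = 0.296), *Pdc* at -0.0073 and *Samd7* at 0.30 (limma unadjusted p = 0.0226 and adjusted p = 0.16). This covariate is partly confounded with genotype, and the part of lens RNA in the rod signals was not tested.

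**Figure D2:**
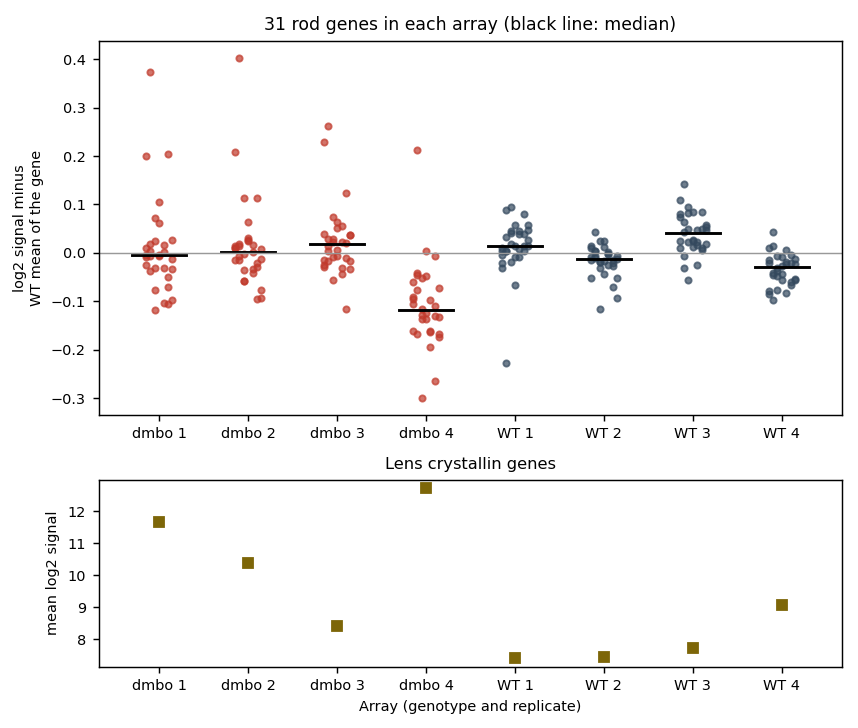
Upper panel, log2 signal of the 31 rod genes in each array minus the gene's WT mean, with the median as a black line. Lower panel, mean log2 signal of 14 crystallin genes in the same arrays. *Dmbo* replicate 4, with a rod median of -0.117, has the highest crystallin mean, 12.73.

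In the transduction group, 11 of 14 genes had a negative log2 fold change, with a median of -0.026, and none passed. The 3 subunits of rod transducin had intervals on both sides of 0. *Gnat1*, the alpha subunit that carries GTP, gave 13.72, 13.73, 13.73 and 13.65 in *dmbo* retinas, against 13.75, 13.73, 13.77 and 13.73 in WT retinas. The groups overlapped, and the log2 fold change was -0.038 (95% interval -0.13 to 0.051, limma adjusted p = 0.945). *Gnb1*, the beta subunit that many cell types share, had a log2 fold change of -0.010 (95% interval -0.094 to 0.074), and *Gngt1*, the gamma subunit, one of 0.017 (-0.14 to 0.18).

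The 3 subunits of PDE6, the phosphodiesterase that hydrolyses cGMP, showed no difference that passed. *Pde6b*, the beta catalytic subunit, is the gene that *Rd1* mutates, and its loss kills rods in the first weeks of life. It lies on chromosome 5 from 108817392 to 108861416 by the positions deposited with the arrays, for which no source used here states a genome build, and *Hmx1* lies on the same chromosome from 35731766 to 35735521. Its signal was 12.77, 12.77, 12.79 and 12.67 in *dmbo* retinas, against 12.76, 12.77, 12.79 and 12.75 in WT retinas. Apart from *dmbo* replicate 4 the arrays lay between 12.75 and 12.79. This gave a log2 fold change of -0.017 (95% interval -0.11 to 0.080, SE 0.043, limma adjusted p = 0.987). The other catalytic subunit, *Pde6a*, had a log2 fold change of -0.032 (-0.14 to 0.073), and the inhibitory subunit *Pde6g* one of -0.048 (-0.14 to 0.045). None of the 36 other genes that start within 1 Mb of *Pde6b* passed, against 0.633% of all genes.

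The channel subunits *Cnga1* and *Cngb1*, which form the cGMP-gated channel, had log2 fold changes of -0.012 (95% interval -0.11 to 0.088) and -0.030 (-0.14 to 0.082). *Cngb1* was the sole rod gene with more than 1 probe set. Its 4 probe sets gave log2 fold changes of -0.030, -0.066, -0.0021 and 0.014, with adjusted p of 0.877 to 1 from limma, so none of them passed.

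The genes that end or tune the response came next. *Sag*, rod arrestin, had a log2 fold change of 0.0072 (95% interval -0.093 to 0.11), and *Grk1*, the kinase of the activated pigment, one of -0.068 (-0.16 to 0.027). *Rgs9*, which speeds GTP hydrolysis by transducin, had the largest positive difference of the group. It gave 12.49, 12.46, 12.48 and 12.38 in *dmbo* and 12.42, 12.44, 12.44 and 12.42 in WT retinas. Here *dmbo* replicates 1 to 3 lay above every WT value and replicate 4 below all of them, with a log2 fold change of 0.025 (95% interval -0.069 to 0.12, limma adjusted p = 0.982).

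*Aipl1* and *Pdc* were the rod genes whose 4 *dmbo* values all lay below the 4 WT values. This held for 2 of 31 rod genes, against 3.24% of all genes. *Aipl1*, a chaperone that PDE6 needs to fold, lies on chromosome 11 from 71842219 to 71851011. It gave 11.53, 11.54, 11.52 and 11.37 in *dmbo* retinas, against 11.65, 11.62, 11.64 and 11.63 in WT retinas. Replicates 1 to 3 of *dmbo* lay close together at 11.52 to 11.54, below the WT values of 11.62 to 11.65, and replicate 4 lay well under them. *Aipl1* thus had a log2 fold change of -0.15 (95% interval -0.25 to -0.036, SE 0.049, limma unadjusted p = 0.0146 and adjusted p = 0.42). It was -0.10 without *dmbo* replicate 4 (limma unadjusted p = 0.0209 and adjusted p = 0.402). An exact permutation test over the 70 assignments of the arrays gave 0.0286, the smallest p it allows, for *Aipl1*, *Pdc* and *Mef2c* alike. Groups of 4 that do not overlap always give this p, so it adds nothing to the lack of overlap. Adjusted over all probe sets, the permutation test gave p = 0.53 for each of these genes.

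*Pdc*, phosducin, which binds the beta and gamma subunits of transducin, lies on chromosome 1 from 152166547 to 152181264. It gave 12.49, 12.56, 12.55 and 12.43 in *dmbo* and 12.60, 12.59, 12.61 and 12.57 in WT retinas. The highest *dmbo* value, 12.56, lay just below the lowest WT value, 12.57. *Pdc* had a log2 fold change of -0.085 (95% interval -0.18 to 0.014, SE 0.044, limma adjusted p = 0.755). *Unc119*, which carries lipid-modified transducin to the outer segment, had a log2 fold change of -0.023 (-0.14 to 0.090).

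**Figure D3:**
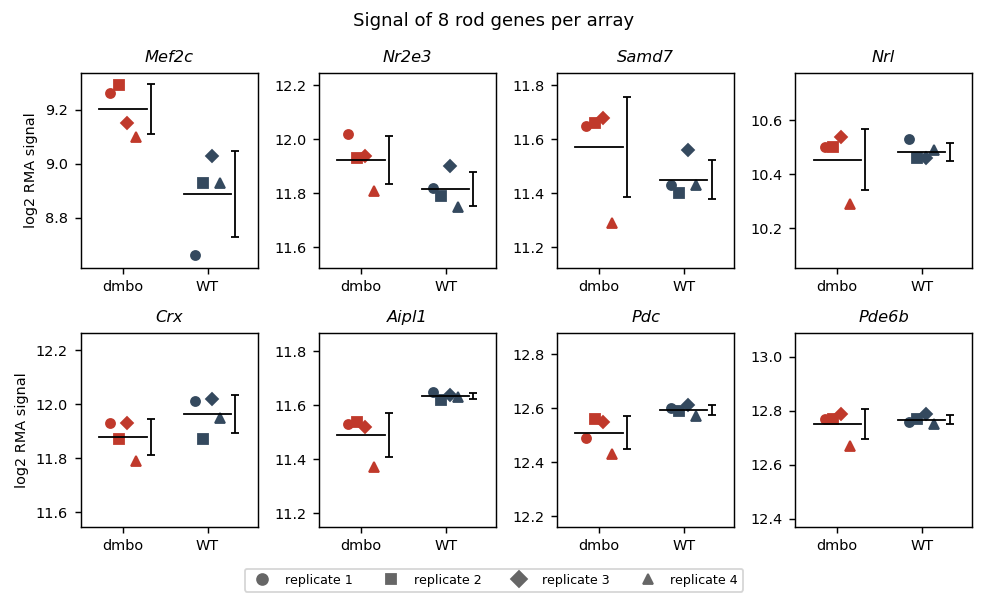
Log2 RMA signal of 8 rod genes in the 4 *dmbo* and the 4 WT arrays. Symbols mark the replicate number, horizontal lines the group mean and bars the standard deviation, and every panel spans the same range of log2 units. In *Mef2c* all *dmbo* values (9.10 to 9.29) lie above all WT values (8.66 to 9.03), and in *Aipl1* all lie below.

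Of the 8 genes of outer segment structure, trafficking and matrix, 7 had a negative log2 fold change, with a median of -0.054, and none passed. *Prph2* and *Rom1*, the tetraspanins that form the disc rim, had log2 fold changes of -0.0067 (95% interval -0.10 to 0.091) and -0.057 (-0.18 to 0.063). Without *dmbo* replicate 4 that of *Rom1* was -0.020. *Impg2*, a proteoglycan of the matrix between photoreceptors, had the largest negative value of the group. It gave 11.71, 11.73, 11.79 and 11.64 in *dmbo* retinas, against 11.82, 11.80, 11.86 and 11.75 in WT retinas. The groups overlapped only through *dmbo* replicate 3 and WT replicate 4, and the log2 fold change was -0.090 (95% interval -0.19 to 0.015, SE 0.047, limma adjusted p = 0.757). *Impg1*, the other proteoglycan of this matrix, had one of -0.051 (-0.17 to 0.069).

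*Fscn2*, a fascin that bundles actin, was the structural gene with a positive value. It gave 9.88, 9.84, 9.84 and 9.78 in *dmbo* and 9.71, 9.80, 9.86 and 9.72 in WT retinas. The WT values spread over a range wider than that of *dmbo* and enclosed 3 of its 4 values, with a log2 fold change of 0.061 (95% interval -0.049 to 0.17, limma adjusted p = 0.911). *Rp1*, a microtubule protein of the axoneme, had a log2 fold change of -0.072 (-0.18 to 0.035). *Tulp1*, a tubby-like protein of inner segment trafficking, had one of -0.070 (-0.18 to 0.042), or -0.038 without *dmbo* replicate 4, and *Reep6*, a membrane protein of rod vesicle transport, one of -0.021 (-0.12 to 0.082).

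The 3 genes of retinoid handling all had small negative values, with log2 fold changes of -0.023 to -0.014, and none passed. *Rbp3* encodes the retinoid-binding protein of the space around the outer segments. It gave 13.27, 13.30, 13.28 and 13.15 in *dmbo* and 13.33, 13.23, 13.30 and 13.23 in WT retinas, with *dmbo* replicate 4 alone outside the WT range (95% interval of the log2 fold change -0.13 to 0.089, limma adjusted p = 0.984). *Abca4*, the transporter of disc membranes that clears retinal adducts, gave 12.46, 12.48, 12.48 and 12.39 in *dmbo* and 12.47, 12.47, 12.51 and 12.42 in WT retinas. Its *dmbo* values lay within the WT range except for replicate 4 (95% interval -0.11 to 0.081, limma adjusted p = 0.993). *Rdh12*, a retinol dehydrogenase of inner segments, had a log2 fold change of -0.017 (-0.11 to 0.077).

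The 6 transcription factors and nuclear regulators spread the most, with 3 positive and 3 negative values, a median log2 fold change of 0.039 and none that passed. *Mef2c* differed most of all rod genes. It lies on chromosome 13 from 83643194 to 83804078 and is also active in other neurons, in microglia and in vessels. It gave 9.26, 9.29, 9.15 and 9.10 in *dmbo* retinas, against 8.66, 8.93, 9.03 and 8.93 in WT retinas. Every *dmbo* value lay above every WT value, and the lowest WT value, that of replicate 1, lay well under the other WT values. This was the 1 rod gene of 31 with *dmbo* wholly above WT, against 2.59% of all genes. The fitted log2 fold change was 0.31 (95% interval 0.13 to 0.50, SE 0.081, limma unadjusted p = 0.00325 and adjusted p = 0.214). It was 0.24 without WT replicate 1 (limma adjusted p = 0.362) and 0.24 without *dmbo* replicates 1 and 2, the arrays with transcripts of both sexes (limma adjusted p = 1). The latter fit compares *dmbo* replicates 3 and 4, which carried *Xist* alone, with WT replicates that mostly carried Y-linked transcripts alone. Sex and genotype are largely confounded in it. *Mef2c* did pass in 3 alternatives. Its limma adjusted p was 0.0946 without the dimmer probe sets, 0.0759 with a trended and robust prior and 0.0608 with array weights. Over all genes 142 of 11473, 181 of 21652 and 253 of 21652 passed in these, in turn, against 137 of 21652 as reported.

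*Nrl*, the leucine zipper factor that commits photoreceptor precursors to the rod fate, gave 10.50, 10.50, 10.54 and 10.29 in *dmbo* and 10.53, 10.46, 10.46 and 10.49 in WT retinas. The value of *dmbo* replicate 4 stood apart, and all other arrays lay between 10.46 and 10.54. Its log2 fold change was -0.030 (95% interval -0.16 to 0.10, SE 0.059, limma adjusted p = 0.984), and 0.026 without *dmbo* replicate 4. *Nrl* lies on chromosome 14 from 56137815 to 56143818. Of 805 genes on this chromosome 2.61% passed, against 0.633% of all genes. Of the 82 other genes that start within 1 Mb of *Nrl* 2 passed, *Cmtm5* and *Rec8*, a share near that of the chromosome. *Nrl* itself did not pass.

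*Crx*, the homeobox factor that both rods and cones need, gave 11.93, 11.87, 11.93 and 11.79 in *dmbo* retinas, against 12.01, 11.87, 12.02 and 11.95 in WT retinas. The groups overlapped, with a log2 fold change of -0.085 (95% interval -0.20 to 0.032, SE 0.052, limma adjusted p = 0.828), and -0.055 without *dmbo* replicate 4. *Nr2e3*, the nuclear receptor that represses cone genes in rods, gave 12.02, 11.93, 11.94 and 11.81 in *dmbo* and 11.82, 11.79, 11.90 and 11.75 in WT retinas. Its *dmbo* replicates 1 to 3 lay above all WT values. The log2 fold change was 0.11 (95% interval -0.018 to 0.23, SE 0.056, limma adjusted p = 0.755), and 0.15 without *dmbo* replicate 4 (limma adjusted p = 0.369).

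*Samd7*, a polycomb-associated protein of rod nuclei, is given for its pattern, which was noticed after its values were seen. It gave 11.65, 11.66, 11.68 and 11.29 in *dmbo* and 11.43, 11.40, 11.56 and 11.43 in WT retinas. Again *dmbo* replicates 1 to 3 lay above all WT values and replicate 4 below all of them. The log2 fold change was 0.12 (95% interval -0.075 to 0.31, SE 0.087, limma adjusted p = 0.883), and 0.21 without *dmbo* replicate 4 (limma adjusted p = 0.151), so this retina moved the value by more than 1.5 times. *Esrrb*, an orphan nuclear receptor, had one of -0.072 (-0.24 to 0.097).

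**Figure D4:**
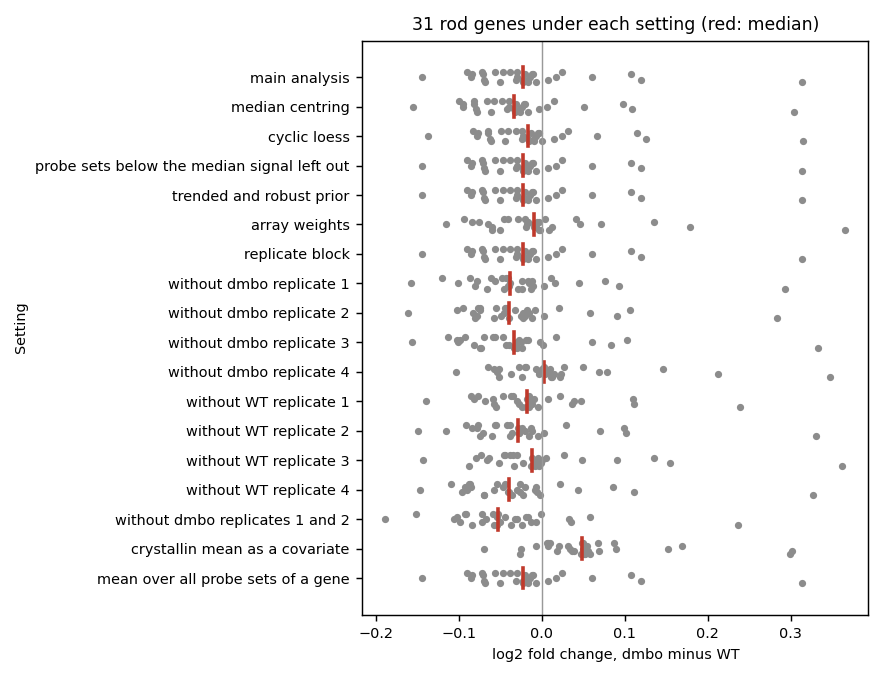
Log2 fold change, *dmbo* minus WT, of each of the 31 rod genes (points) under each way of processing the arrays (rows), with the median in red. The median is -0.023 as reported, 0.0028 without *dmbo* replicate 4 and 0.048 with the crystallin covariate.

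The promoters of the rod genes were searched for a pair of short motifs in RefSeq windows of 250 bases before to 50 bases after the gene start (GRCm38.p6). Windows were found for 26 of the 31 genes, 31 windows in all. CAAGTG is the sequence to which HMX1 is known to bind, and TAATCC is the core of the site that CRX is known to bind. Both strands were searched, and in the 3 windows that held both motifs (*Abca4*, *Cnga1* and *Unc119*) the matches did not overlap. CAAGTG or its reverse complement was present for 5 of 26 rod genes (19.2%) and for 15.4% of all genes with a window. The 5 were *Abca4*, *Cnga1*, *Unc119*, *Esrrb* and *Mef2c*. TAATCC or its reverse complement was present for 10 of 26 rod genes (38.5%) and for 8.14% of all genes with a window. A match is a description of the letters and does not show a bound site.

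The windows of *Mef2c*, *Aipl1*, *Crx* and *Cnga1* are given because these genes hold, in turn, the largest positive difference, the largest negative difference, the largest negative difference among the factors, and both motifs with a log2 fold change near 0. They are written 5′ to 3′ along the gene, with every match to CAAGTG and to TAATCC, on either strand, in capitals. The windows are chr13:83503784-83504083 on the plus strand for *Mef2c*, chr11:72037460-72037759 on the minus strand for *Aipl1*, chr7:15879906-15880205 on the minus strand for *Crx* and chr5:72642703-72643002 on the minus strand for *Cnga1*.
Mef2c: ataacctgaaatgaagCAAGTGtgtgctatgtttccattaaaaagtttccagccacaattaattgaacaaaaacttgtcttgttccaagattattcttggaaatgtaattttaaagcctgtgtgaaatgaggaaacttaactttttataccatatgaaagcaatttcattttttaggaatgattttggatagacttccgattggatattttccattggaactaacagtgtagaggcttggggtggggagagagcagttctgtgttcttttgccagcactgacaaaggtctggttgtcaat
Aipl1: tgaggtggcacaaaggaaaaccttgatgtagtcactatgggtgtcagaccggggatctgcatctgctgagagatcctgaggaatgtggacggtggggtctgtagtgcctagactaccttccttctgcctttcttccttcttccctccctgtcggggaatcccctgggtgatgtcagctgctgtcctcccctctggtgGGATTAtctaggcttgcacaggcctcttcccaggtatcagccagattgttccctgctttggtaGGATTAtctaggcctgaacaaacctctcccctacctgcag
Crx: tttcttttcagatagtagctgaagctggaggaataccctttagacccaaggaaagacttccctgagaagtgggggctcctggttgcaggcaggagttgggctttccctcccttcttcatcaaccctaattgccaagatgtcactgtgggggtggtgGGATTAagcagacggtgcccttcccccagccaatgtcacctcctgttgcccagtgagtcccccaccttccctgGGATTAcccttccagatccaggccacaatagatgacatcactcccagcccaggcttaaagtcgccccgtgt
Cnga1: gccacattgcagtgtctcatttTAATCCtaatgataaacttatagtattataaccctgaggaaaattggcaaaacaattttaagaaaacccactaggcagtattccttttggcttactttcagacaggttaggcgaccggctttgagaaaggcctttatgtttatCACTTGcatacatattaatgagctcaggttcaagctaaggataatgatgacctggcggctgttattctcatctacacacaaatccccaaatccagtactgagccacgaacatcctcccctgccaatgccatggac
Counted from the gene start, the CAAGTG match of *Mef2c* lies at -234, in 1 of 3 windows of this gene, and that of *Cnga1* at -85, as the reverse complement. The TAATCC matches lie at -53 and 11 in *Aipl1* and at -94 and -21 in *Crx*, all as the reverse complement, and at -228 in *Cnga1*.

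Of the 5 genes with CAAGTG, *Mef2c* had a log2 fold change of 0.31 and *Cnga1*, *Abca4*, *Unc119* and *Esrrb* had values between -0.072 and -0.012. Among the 10 genes with TAATCC (*Sag*, *Samd7*, *Abca4*, *Cnga1*, *Gngt1*, *Crx*, *Cngb1*, *Aipl1*, *Unc119* and *Rbp3*) the values ran from -0.15 to 0.12. None of these genes passed.

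Among 32 other genes of photoreceptors listed by function and all measured, 1 passed with a higher and none with a lower signal in *dmbo*. Of all genes 0.314% and 0.319% did so. The gene that passed was *Guca1a*, the calcium sensor of the photoreceptor guanylate cyclases. It gave 11.79, 11.82, 11.70 and 11.46 in *dmbo* and 11.07, 11.15, 11.30 and 11.27 in WT retinas, with a log2 fold change of 0.49 (SE 0.084, limma adjusted p = 0.048). In *dmbo* replicate 4 it too was lowest of its group. At an unadjusted p under 0.05 from limma there were 3 of the 32, or 9.38%, near the 7.75% of all genes. They were *Guca1a* and, with all *dmbo* values below WT, *Rorb* and *Rcvrn* (log2 fold changes -0.20 and -0.13). The median log2 fold change of the 32 was -0.030, with 20 negative and 12 positive values. Marker lists of other cells gave the following values, and their part in the rod signals was not tested. The 9 cone markers had a median of -0.12 with none that passed, the 8 bipolar markers -0.046 with none, and the 9 pigment epithelium markers -0.14 with none. Of the 9 cone markers 4 had an unadjusted p under 0.05 from limma, against 7.75% of all genes, *Gnat2* higher (log2 fold change 0.22) and *Pde6c*, *Pde6h* and *Cnga3* lower (-0.25, -0.37 and -0.21). Of 8 Müller glia markers 2 rose, the potassium channel *Kcnj10* and the water channel *Aqp4* (log2 fold changes 0.29 and 0.30), against 0.314% of all genes, with a median of 0.16. In sign 6 were positive and 2 negative. The groups did not overlap in 3 with higher and 1 with lower *dmbo* values, against 2.59% and 3.24% of all genes. The higher ones were *Kcnj10*, *Aqp4* and *Slc1a3*. *Slc1a3* had a limma adjusted p of 0.0545 but was at 1.199-fold, just short of the minimum, and did not pass. The lower one was *Rlbp1* (log2 fold change -0.10, limma unadjusted p = 0.0405).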

How the data were processed

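Affymetrix Mouse Gene 1.0 ST arrays of 4 *dmbo* and 4 WT retinas at P15 were analyzed. The authors extracted the scans with Affymetrix Power Tools, made the deposited log2 values with RMA and used R 2.12.1 with limma 3.6.9 for their comparison, whose deposited fold changes and p-values were not used. Probe set positions have no stated genome build. Replicates are separate animals per the study. With limma 3.58.1 (R 4.3.3) the difference of *dmbo* from WT was fitted for all 28350 probe sets, and p-values were adjusted by Benjamini and Hochberg over all of them. Probe sets with 1 symbol numbered 25004, with none 3344 and with several 2. A gene is its brightest probe set, with no filter on low values, and passed with an adjusted p below 0.1 and a change of 1.2-fold or more. Precision is limited by how few arrays there were. An exact permutation test (two-sided, 70 assignments) cannot go below 0.0286. Scripts were tested on simulated data. Values per array are given for rod genes with an unadjusted p under 0.05, the highest and lowest of each subgroup, *Pde6b*, *Nrl*, *Crx* and *Nr2e3*, with *Gnat1*, *Pdc* and *Samd7* added after their values were seen. The members and lists were chosen with earlier results of these data known. Of the listed names 2 were matched by an older symbol. Alternatives were median centring, cyclic loess, a filter on dim probe sets, weights per array, arrays left out, a prior made robust and trended, a block for the replicate number, the crystallin mean as a covariate, other fold minimums, the mean over probe sets and the permutation test.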

Additional observations from a re-analysis of the deposited data

Results flagged for a closer look

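In 5 of 62 groups of 4 values, each of 1 rod gene in 1 genotype, a single array lay apart from the other 3 by Dixon's ratio of the gap to the range (above 0.829). Chance gives this in about 1 of 20 groups. All 5 were *dmbo* groups, and the array apart was the low *dmbo* replicate 4 each time. The ratio was 0.923 for *Sag* (13.01 against 13.07 to 13.08), 0.910 for *Aipl1* (11.37 against 11.52 to 11.54), 0.910 for *Tulp1* (11.44 against 11.56 to 11.57), 0.838 for *Nrl* (10.29 against 10.50 to 10.54) and 0.927 for *Samd7* (11.29 against 11.65 to 11.68). The 5 groups share this 1 array and are not independent of each other.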

How the results depend on the processing

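No rod gene passed under median centring, cyclic loess, the replicate block, the crystallin covariate, the mean over probe sets, other fold minimums or with any array left out. In 3 settings 1 passed, *Mef2c*: without probe sets below the median signal, with a trended and robust prior, and with array weights. The cause was not tested. Rod genes at an unadjusted p under 0.05 (limma) numbered 2 as reported, 4 under cyclic loess and 5 with the trended prior. There were 5 with array weights and 1 without *dmbo* replicates 1 and 2. The share of all genes at this p was not counted in the alternatives, so these counts have no background beside them. Over all genes 137 passed as reported, 170 under cyclic loess, 181 with the trended prior and 253 with array weights. The count was 44 without *dmbo* replicates 1 and 2, 669 with the crystallin covariate and 27 at 1.5-fold or more.

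The labels give no pairing of the samples by replicate number, and the groups were compared unpaired. Same-numbered deviations correlated at -0.029, -0.016, 0.032 and 0.425, and those with other numbers at -0.451 to 0.318. The value of replicates 4 was the highest, and these correlations do not settle whether the numbers pair the samples. With the replicate block 113 genes and 0 rod genes passed, the rod median was -0.0234, and *Mef2c* had an adjusted p of 0.287 from limma.

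Leaving out 1 array at a time gave 70 to 154 genes over the whole table, 2 to 4 rod genes at an unadjusted p under 0.05 and a rod median of -0.0403 to 0.00281. Whole-table counts moved by over 1.5 times without *dmbo* replicate 1 (88) or 2 (81) and without WT replicate 1 (72), 2 (70) or 3 (70). The log2 fold change of 13 rod genes changed sign, with ranges of *Gnb1* -0.0172 to 0.000114, *Gngt1* -0.0202 to 0.0693, *Pde6a* -0.0499 to 0.00339, *Pde6b* -0.0305 to 0.0111, *Cnga1* -0.0286 to 0.00923, *Sag* -0.00597 to 0.0361, *Unc119* -0.043 to 0.0144, *Prph2* -0.0236 to 0.0217, *Reep6* -0.0472 to 0.00531, *Abca4* -0.0295 to 0.0072, *Rbp3* -0.0399 to 0.0119, *Nrl* -0.057 to 0.0261 and *Esrrb* -0.12 to 0.00281. Without *dmbo* replicate 4, values that kept their sign but moved by over 1.5 times were *Gnat1* -0.0194, *Pde6g* -0.0276, *Cngb1* -0.00359, *Rgs9* 0.0496, *Rom1* -0.0201, *Tulp1* -0.0377, *Impg1* -0.0245, *Reep6* -0.00701, *Rdh12* -0.00367, *Crx* -0.0548, *Samd7* 0.212, *Gngt1* 0.0693 and *Sag* 0.0231.

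The crystallin covariate moved the rod median to 0.0482 and turned 20 log2 fold changes positive: *Gnat1* 0.0072, *Gnb1* 0.00678, *Pde6a* 0.0367, *Pde6b* 0.0474, *Pde6g* 0.00974, *Cnga1* 0.0542, *Cngb1* 0.0339, *Unc119* 0.0691, *Prph2* 0.0517, *Rom1* 0.0482, *Rp1* 0.032, *Tulp1* 0.0181, *Impg1* 0.0502, *Impg2* 0.00611, *Reep6* 0.0211, *Abca4* 0.0501, *Rdh12* 0.0388, *Rbp3* 0.0581, *Nrl* 0.0866 and *Esrrb* 0.0501. None of the 20 passed in either fit. Of the others that moved by over 1.5 times, *Gngt1* was at 0.152, *Sag* at 0.0553, *Grk1* at -0.0262, *Rgs9* at 0.0674, *Pdc* at -0.00727, *Aipl1* at -0.0702, *Nr2e3* at 0.169, *Crx* at -0.0256 and *Samd7* at 0.301, and none passed. Other turns of sign were *Sag* -0.00297 under median centring, *Prph2* 0.000407 under cyclic loess, *Prph2* 0.0084 and *Nrl* 0.00329 with array weights, and *Gngt1* -0.0329, *Sag* -0.00727 and *Rgs9* -0.000885 without *dmbo* replicates 1 and 2.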
